A study of Mus musculus with 8 samples.

Results

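The activin, myostatin and follistatin axis was read through 10 genes, taken by symbol from the 24419 rows of the count table: the ligand genes Inhba, Inhbb, Mstn, Gdf11 and Gdf15, the antagonist genes Fst and Fstl3, and the receptor genes Acvr2a, Acvr2b and Acvr1b. All 10 had reads, and all 10 were among the 13646 genes left for testing by a filter on low counts. The RNA came from fibroadipogenic progenitors, stromal cells between the fibres of skeletal muscle that can become fibroblasts or fat cells. Male C57BL/6J mice gave hindlimb muscle, from which they were sorted as living cells with SCA-1 on their surface and without CD31, CD45 and α7-integrin. The miR-27a-KD mice (n = 3) had KPCY cells, a mouse pancreatic cancer line, placed in the pancreas after lentiviral transduction with an inhibitor of miR-27a-3p. The KPC Scr mice (n = 3) had the same number of KPCY cells transduced with a scrambled sequence, and the sham mice (n = 2) had surgery alone. Both KPCY lines were selected with puromycin. By design the inhibitor was put into the implanted cells and not into the progenitors, and these libraries did not measure it in the progenitors. No age, time of collection or library batch was given. The libraries were labelled biological replicates, and each p-value rests on the spread among these 8 libraries.

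Activin A is a dimer of the protein made from Inhba, and activin B of that made from Inhbb. Activins, myostatin (Mstn) and GDF11 bind the type II receptors made from Acvr2a and Acvr2b. These receptors recruit a type I receptor such as ALK4 (Acvr1b), and the signal passes to SMAD proteins inside the cell. Follistatin (Fst) and follistatin-like protein FSTL3 trap these ligands outside the cell. In skeletal muscle, activins and myostatin restrain fibre growth and follistatin opposes them. GDF15, a distant relative raised in many forms of cachexia, acts through another receptor, GFRAL with its partner RET, in the hindbrain.

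Because the implanted cells differed in miR-27a-3p, the mature microRNA (RefSeq, GRCm38.p6, chr8:84208727-84208747, + strand) is shown first, with its seed, bases 2 to 8, in capitals. Below it stand the matches to this seed in the longest annotated 3′ UTRs of the 10 genes (GENCODE M21, GRCm38), with the 7 matched bases in capitals. 
mmu-miR-27a-3p: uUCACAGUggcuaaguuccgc
Mstn site, chr1:53066676-53066701, + strand: ccctcaatttcgaaACTGTGAattca
Acvr2a site, chr2:48901413-48901438, + strand: actatcaggagctcACTGTGAatgca
Mstn and Acvr2a each had 1 match, at positions 427 and 1639 of the UTR, and both were followed by an A. The other 8 genes had 0. Of 15535 genes with reads and an annotated 3′ UTR, 2846 (18.3%) had a match. The gene of the precursor, Mir27a, had 0 reads in each miR-27a-KD library, 12, 12 and 3 reads in KPC Scr libraries 1, 2 and 3, and 0 reads in each sham library, where 0 allows up to 3 reads. Libraries of polyadenylated RNA do not measure the mature microRNA.

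Total counts ran from 15647436 to 28340450 per library. On the leading axis of a principal component analysis, with 61.1% of the variance, the miR-27a-KD libraries lay between -39.5 and -32.3, KPC Scr libraries 1 and 3 at 115 and 92.0, KPC Scr library 2 at -12.3, and the sham libraries at -47.7 and -42.1. KPC Scr library 2 therefore lay apart from the other libraries of its group. Pdgfra, the receptor that defines these progenitors, stood between 1449 and 1477 normalised CPM in miR-27a-KD, between 1519 and 1586 in KPC Scr and at 1256 and 1588 in sham libraries (CPM are read counts relative to library size, here with TMM scaling factors). Several other progenitor markers were low in KPC Scr libraries 1 and 3, while Dcn was high in all 3 KPC Scr libraries. Cd34 had 1805 to 1925 CPM in miR-27a-KD, 213, 1179 and 241 in KPC Scr libraries 1, 2 and 3, and 2250 and 2156 in sham libraries. Ly6a, which encodes the sort marker SCA-1, had 1033 to 1175 CPM in miR-27a-KD, 451, 1136 and 436 in KPC Scr, and 951 and 933 in sham libraries. Pi16 had 2102 to 2565, then 295, 2305 and 189, then 2722 and 2974 CPM in the same order of groups, and Dcn, the most abundant of the list in KPC Scr, 12811 to 16204, then 24984, 19625 and 21059, then 11101 and 14630 CPM. Of the 10 progenitor markers edgeR called 0 between KPC Scr and sham (4 with an unadjusted p under 0.05, 3 called by DESeq2, 0 by limma-voom), and without KPC Scr library 2 it called 1 higher and 7 lower, against 51.0% of all genes. The summed level of these 10 markers was 43318 to 49048 CPM in miR-27a-KD, 25393 to 42880 in KPC Scr and 41675 to 49969 in sham libraries, lowest in KPC Scr libraries 1 and 3. The 3 genes gated against, Pecam1, Ptprc and Itga7, summed to 41.5 to 57.4, 46.4 to 79.5 and 24.3 to 33.0 CPM in the same order of groups. The 10 muscle fibre markers summed to 50.3 to 61.1 CPM in miR-27a-KD and 34.7 and 65.1 in sham libraries. In KPC Scr libraries 1, 2 and 3 the sum was 73.1, 91.5 and 249.7 CPM. The 6 epithelial markers of tumour cells summed to 5.03 to 8.32 CPM in miR-27a-KD and 5.63 and 4.35 in sham libraries. In KPC Scr libraries 1, 2 and 3 they summed to 18.3, 7.35 and 4.41 CPM. KPC Scr library 1 had 240 reads of Cdh1 and 103 of Epcam, against at most 56 and 9 elsewhere. There were also 31 reads of Krt8 and 17 of Krt18 in that library, against at most 1 and 3 elsewhere. Krt19 and Muc1 were not highest there. Between KPC Scr and sham, DESeq2 called 4 of 10 fibre markers, 2 of 3 genes gated against and 1 of 3 epithelial markers tested, all higher. It called 4 of 6 pericyte and smooth muscle markers (3 higher, 1 lower) and 3 of 5 Schwann cell markers (2 higher, 1 lower). Of endothelial markers it called 3 of 7 (2 higher, 1 lower), and of tenocyte markers 2 of 8 (1 higher, 1 lower). Among progenitor markers 1 was called higher and 2 lower. For stem cells, macrophages, neutrophils and adipocytes it called 0. Of the 70 marker genes of 12 cell types that were tested, edgeR called 0 between KPC Scr and sham, although 28 had an unadjusted p under 0.05 (29.2% of all genes did), DESeq2 called 22 (15.2% of all genes) and limma-voom called 1. The part of these markers in the results that follow was not tested, and in bulk RNA fewer cells of a type and less RNA per cell cannot be told apart.

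In KPC Scr progenitors, compared with sham progenitors, the RNA of activin B's subunit and of the type I receptor rose and that of activin A's subunit fell. Inhbb was 4.16-fold higher, Acvr1b 3.52-fold higher and Inhba 4.72-fold lower. These were the 3 of 10 genes called by edgeR's quasi-likelihood test at an adjusted p under 0.05, against 1.58% of all genes tested, 1.10% for higher and 0.476% for lower. Fst, Gdf15, Acvr2b and Acvr2a had positive changes and Gdf11 a negative one, none of them called, and Mstn and Fstl3 lay near 0. The unadjusted p was under 0.05 for 6 of the 10, 5 of them higher and 1 lower, against 16.7% and 12.5% of all genes. DESeq2 called 5 of the 10, against 15.2% of all genes, and limma-voom 3. Without KPC Scr library 2, edgeR called 7 of the 10, against 51.0% of all genes. The calls of Inhbb, Acvr1b and Inhba were lost with only the compared groups fitted, and with replicate number as a block. The 10 genes were chosen with earlier results of these data known. Over the 10 genes the median log2 fold change was 1.02, beside 0.00 over all genes tested.

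In miR-27a-KD progenitors, compared with KPC Scr progenitors, the values of the same genes ran the other way, and none passed the adjusted threshold. Inhba stood 3.13-fold higher, Inhbb 2.68-fold lower, Acvr1b 2.28-fold lower and Gdf15 6.39-fold lower, with adjusted p from 0.0610 to 0.0768 (edgeR). Of the 10 genes 0 were called, against 0.0513% of all genes tested, which were 7 genes (0.00733% higher and 0.0440% lower). The unadjusted p was under 0.05 for 1 of them with a positive and 5 with a negative change, against 13.9% and 18.6% of all genes, or 32.4% in both directions. DESeq2 called 6 of the 10, against 17.0% of all genes, and limma-voom 0. Leaving out KPC Scr library 2 gave 7 calls among the 10, against 54.0% of all genes. The median log2 fold change over the 10 genes was -0.80, beside 0.01 over all genes. This comparison and the one with sham share the KPC Scr libraries, so the opposite signs are not independent of each other.

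Between miR-27a-KD and sham progenitors, 0 of the 10 genes were called, against 0.00733% of all genes tested, and 0 had an unadjusted p under 0.05, against 2.37% of all genes, 1.67% higher and 0.696% lower (edgeR). DESeq2 and limma-voom also called 0. The log2 fold changes ran from -1.16 for Gdf15 to 0.80 for Mstn, with a median of 0.21. A p above the threshold with 3 and 2 libraries does not show that the groups were alike.

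**Figure D1:**
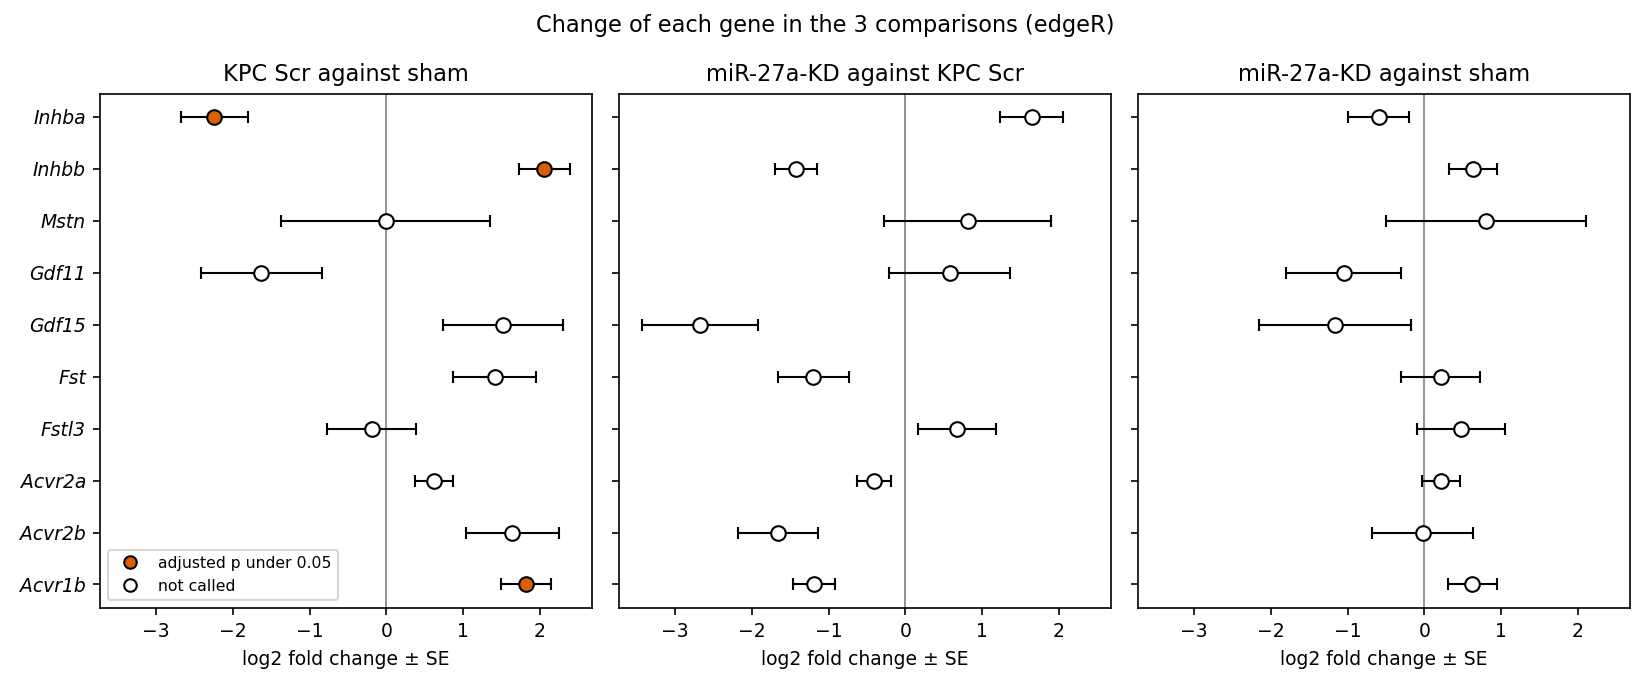
Log2 fold change of each gene with its standard error in KPC Scr against sham (left), miR-27a-KD against KPC Scr (middle) and miR-27a-KD against sham (right). Filled points, Inhba, Inhbb and Acvr1b in the left panel, had an adjusted p under 0.05.

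Inhba (chr13:16011851-16031621, + strand, GRCm38) encodes the subunit of activin A. It had 5.39, 7.65 and 5.16 CPM in miR-27a-KD libraries 1, 2 and 3, 1.41, 3.09 and 1.13 CPM in KPC Scr libraries 1, 2 and 3, and 10.8 and 7.53 CPM in sham libraries 1 and 2. Every KPC Scr library lay below every library of both other groups, while miR-27a-KD library 2 overlapped the sham range. The means were 6.07 ± 1.37 (SD, n = 3) in miR-27a-KD, 1.88 ± 1.06 (n = 3) in KPC Scr and 9.14 ± 2.28 CPM (n = 2) in sham. Inhba fell by 2.24 ± 0.44 (SE) on the log2 scale in KPC Scr against sham (edgeR, adjusted p = 0.0454). The log2 fold change was 1.65 ± 0.41 in miR-27a-KD against KPC Scr (adjusted p = 0.0727) and -0.59 ± 0.40 in miR-27a-KD against sham (adjusted p = 1). The call against sham was lost when any library other than KPC Scr library 2 was left out (adjusted p from 0.0932 to 0.397), and was kept without KPC Scr library 2 (-2.79, adjusted p = 0.000187). Without KPC Scr library 2, 51.0% of all genes were called. With that library alone in its group the change of Inhba was -1.55.

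Inhbb (chr1:119415465-119422248, - strand) encodes the subunit of activin B. Its CPM were 40.7, 25.7 and 42.9 in miR-27a-KD, 67.0, 97.1 and 129.9 in KPC Scr, and 24.5 and 22.5 in sham libraries. The 3 groups were fully separated, with KPC Scr highest, miR-27a-KD between and sham lowest, and KPC Scr library 2 was the middle library of its group. Means were 36.4 ± 9.34 CPM (n = 3), 98.0 ± 31.4 CPM (n = 3) and 23.5 ± 1.37 CPM (n = 2) in the same order. Inhbb rose by 2.06 ± 0.33 on the log2 scale in KPC Scr against sham (edgeR, adjusted p = 0.0265). Its log2 fold change was -1.42 ± 0.27 in miR-27a-KD against KPC Scr (adjusted p = 0.0610) and 0.63 ± 0.31 in miR-27a-KD against sham (adjusted p = 1). Leaving out sham library 1 or 2, KPC Scr library 3 or any miR-27a-KD library ended the call against sham (adjusted p from 0.0544 to 0.290). The change was 2.05 with KPC Scr library 2 alone in its group. It was 2.06 without that library (adjusted p = 0.000957, over all alternatives 1.71e-07 to 0.290), where 51.0% of all genes were called.

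The 2 subunits can be set side by side per kilobase of exon. Inhbb over Inhba was 11.4, 5.05 and 12.5 in miR-27a-KD libraries 1, 2 and 3, 71.4, 47.3 and 172 in KPC Scr libraries, and 3.42 and 4.49 in sham libraries. No library of one group entered the range of another. Every KPC Scr library was above all others for Inhbb and below all others for Inhba. The ratio therefore had to set KPC Scr apart, and it adds no separate support. The ratios in KPC Scr rest on only 36, 73 and 18 reads of Inhba in libraries 1, 2 and 3. Inhbb made up 83.5% to 92.6% of the summed level of both in miR-27a-KD, 97.9% to 99.4% in KPC Scr, and 77.4% and 81.8% in sham libraries. The sum itself was 7.24 to 10.9, 15.98 to 30.7, and 7.44 and 6.48 CPM per kb in these groups, so the lower Inhba of KPC Scr came with a higher total. Inha, whose product pairs with either subunit to form an inhibin in place of an activin, had 4.55 to 6.25 CPM in miR-27a-KD, 7.44 to 9.51 in KPC Scr, and 3.67 and 4.69 in sham libraries, and its log2 fold change of 1.00 ± 0.31 in KPC Scr against sham was not called (edgeR, adjusted p = 0.0982).

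**Figure D2:**
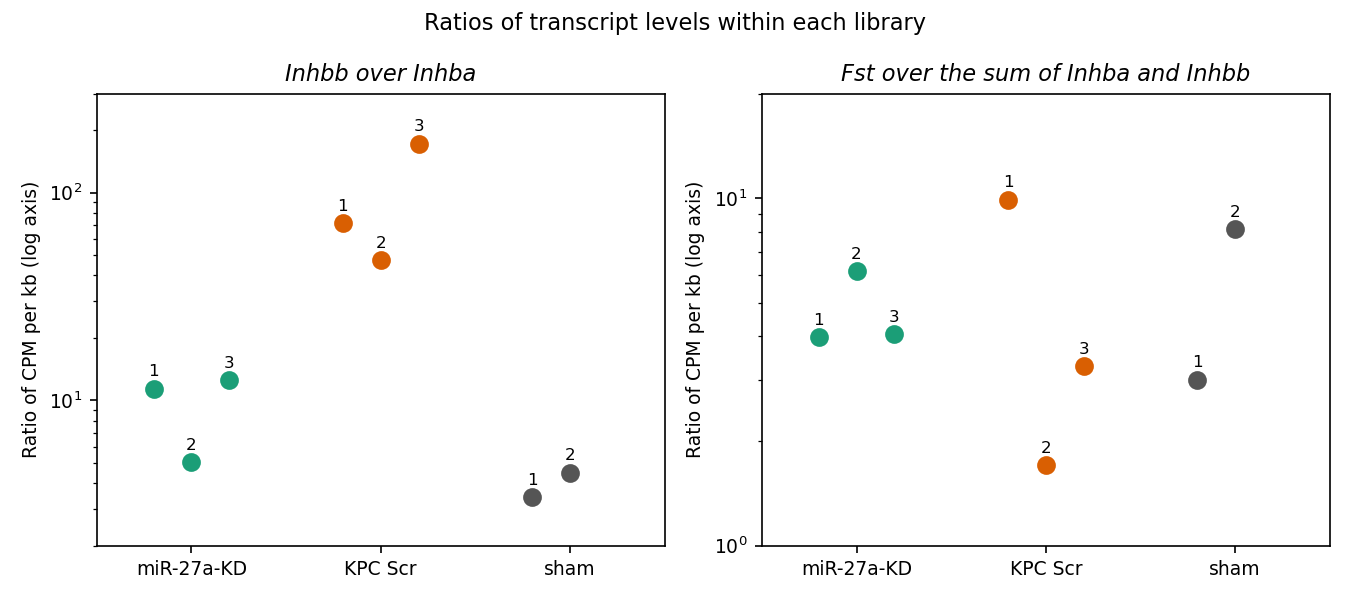
Ratio of Inhbb to Inhba (left) and of Fst to the sum of Inhba and Inhbb (right) in each library, from CPM per kb of exon on log axes, with libraries numbered within groups. The left ratio is 47.3 or more in every KPC Scr library and 12.5 or less in all others, and the right ratio overlaps between the groups, from 1.70 to 9.89 in KPC Scr.

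Mstn (chr1:53061640-53068079, + strand) encodes myostatin, which muscle fibres make. Its reads were 11, 11 and 3 in miR-27a-KD, 0, 3 and 12 in KPC Scr, and 4 and 4 in sham libraries. The counts of 0, 3 and 4 are at or near the limit of 3 reads that a count of 0 allows, and those of 11 and 12 are low. The groups overlapped. No difference was detectable at this depth: the log2 fold changes were -0.01 ± 1.36 in KPC Scr against sham, 0.81 ± 1.08 in miR-27a-KD against KPC Scr and 0.80 ± 1.31 in miR-27a-KD against sham (edgeR, adjusted p from 0.600 to 1). The first of these changed sign with other scalings and tests.

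Gdf11 (chr10:128882295-128891718, - strand), the close relative of myostatin, had 21, 18 and 27 reads in miR-27a-KD, 0, 34 and 13 in KPC Scr, and 29 and 48 in sham libraries. As CPM these were 1.08, 1.00 and 1.18 in miR-27a-KD, 0, 1.44 and 0.819 in KPC Scr, and 1.83 and 2.68 in sham, where 3 reads in KPC Scr library 1 would be 0.118 CPM. Both sham libraries lay above all 6 libraries with tumours. The log2 fold change was -1.63 ± 0.79 in KPC Scr against sham (edgeR, adjusted p = 0.197) and -1.05 ± 0.74 in miR-27a-KD against sham (adjusted p = 1), and neither was called. The change in KPC Scr against sham was -2.81 and called with KPC Scr library 2 left out (adjusted p = 0.0163, over all alternatives 0.0163 to 0.630). Without KPC Scr library 2, 51.0% of all genes were called. With KPC Scr library 1, the library with 0 reads, left out the change was -0.95 and not called.

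Gdf15 (chr8:70629393-70632456, - strand), a hormone of cell stress that suppresses appetite, had 0.616, 1.00 and 0.437 CPM in miR-27a-KD, 2.23, 2.24 and 9.19 CPM in KPC Scr, and 0.886 and 2.06 CPM in sham libraries. Its reads were 12, 18 and 10 in miR-27a-KD, 57, 53 and 146 in KPC Scr, and 14 and 37 in sham libraries. KPC Scr lay above both other groups. KPC Scr libraries 1 and 2 were close to sham library 2 and well above every miR-27a-KD library, and KPC Scr library 3 was the highest. The mean was 0.686 ± 0.290 CPM in miR-27a-KD (n = 3), 4.56 ± 4.02 in KPC Scr (n = 3) and 1.48 ± 0.834 in sham (n = 2). Gdf15 had a log2 fold change of -2.67 ± 0.76 in miR-27a-KD against KPC Scr (edgeR, adjusted p = 0.0768) and 1.52 ± 0.78 in KPC Scr against sham (adjusted p = 0.217). Against sham, the value was 0.58 without KPC Scr library 3 and 2.25 without sham library 2, neither called. In miR-27a-KD against KPC Scr it was -2.96 and called without KPC Scr library 2 (adjusted p = 0.00470), and -1.74 and not called without KPC Scr library 3, in a range of adjusted p from 0.00455 to 0.271 over all alternatives. Without KPC Scr library 2, 54.0% of all genes were called in miR-27a-KD against KPC Scr. Gfral, the receptor gene for GDF15, had 0 reads in all 8 libraries, each of which allows up to 3 reads.

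Among the antagonists, Fst (chr13:114452290-114458951, - strand) was the most abundant of the 10 genes. It had 190.2, 205 and 203 CPM in miR-27a-KD, 725, 182 and 463 CPM in KPC Scr, and 102 and 242 CPM in sham libraries. KPC Scr libraries 1 and 3 were far above all others, while KPC Scr library 2 was within the sham range and below all 3 miR-27a-KD libraries. The means were 199 ± 7.81 (n = 3), 457 ± 272 (n = 3) and 172 ± 98.6 CPM (n = 2) in these groups. The log2 fold change was 1.41 ± 0.53 in KPC Scr against sham (edgeR, adjusted p = 0.133) and -1.20 ± 0.46 in miR-27a-KD against KPC Scr (adjusted p = 0.121). Without KPC Scr library 2 both were called, at 1.79 (adjusted p = 0.00462) and -1.59 (adjusted p = 0.00399). In that setting 51.0% and 54.0% of all genes were called. With KPC Scr library 2 alone in its group the changes of Fst were 0.08 and 0.13. Fst over the summed beta subunits, per kilobase, was 3.98, 6.16 and 4.06 in miR-27a-KD, 9.89, 1.70 and 3.29 in KPC Scr, and 3.00 and 8.13 in sham libraries, and these ranges overlapped. The labelled groups thus did not separate on this ratio.

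Fstl3 (chr10:79777272-79782630, + strand), the second antagonist, had 6.62, 12.8 and 5.73 CPM in miR-27a-KD, 2.74, 9.47 and 3.27 in KPC Scr, and 6.52 and 5.47 in sham libraries. Here KPC Scr libraries 1 and 3 were the lowest of all 8, and library 2 was above both sham libraries. The log2 fold changes were -0.19 ± 0.58 in KPC Scr against sham, 0.67 ± 0.50 in miR-27a-KD against KPC Scr and 0.48 ± 0.57 in miR-27a-KD against sham (edgeR, adjusted p from 0.356 to 1). With KPC Scr library 2 left out, the change in miR-27a-KD against KPC Scr was 1.47 and called (adjusted p = 0.00859, over all alternatives 0.00859 to 0.870). In that setting 54.0% of all genes were called. Fstl3 shares 1157 of its 2445 exon bases with Prss57 on the other strand, which had at most 61 reads in a library. The strand used in counting is not given in the sources used here, so some reads of the 2 genes may be mixed.

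Acvr1b (chr15:101174067-101213684, + strand) encodes ALK4, the type I receptor that activins and myostatin recruit. It had 19.3, 23.9 and 21.6 CPM in miR-27a-KD, 64.2, 36.7 and 47.0 CPM in KPC Scr, and 9.87 and 18.0 CPM in sham libraries. The groups did not overlap, and KPC Scr library 2 was the lowest of its group and still above every library of the other groups. Means were 21.6 ± 2.32 CPM (n = 3) in miR-27a-KD, 49.3 ± 13.9 CPM (n = 3) in KPC Scr and 13.9 ± 5.77 CPM (n = 2) in sham. Acvr1b rose by 1.82 ± 0.32 on the log2 scale in KPC Scr against sham (edgeR, adjusted p = 0.0375). Its log2 fold change was -1.19 ± 0.27 in miR-27a-KD against KPC Scr (adjusted p = 0.0716) and 0.63 ± 0.32 in miR-27a-KD against sham (adjusted p = 1). The call was lost when any library other than KPC Scr library 2 was left out (adjusted p from 0.0730 to 0.344). Without KPC Scr library 2 the change was 2.00 (adjusted p = 8.00e-05), in a setting where 51.0% of all genes were called. With that library alone in its group the change was 1.38.

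The type II receptor genes differed in level. Acvr2a (chr2:48814109-48903269, + strand) had 79.1, 62.1 and 66.9 CPM in miR-27a-KD, 115, 85.2 and 76.1 CPM in KPC Scr, and 47.8 and 71.6 CPM in sham libraries. KPC Scr lay above sham by a small margin and overlapped miR-27a-KD. The log2 fold change was 0.62 ± 0.25 in KPC Scr against sham (edgeR, adjusted p = 0.143), -0.41 ± 0.22 in miR-27a-KD against KPC Scr (adjusted p = 0.212) and 0.22 ± 0.24 in miR-27a-KD against sham (adjusted p = 1). With KPC Scr library 2 left out the first was 0.69 and called (adjusted p = 0.0281, over all alternatives 0.0281 to 0.545). In that setting 51.0% of all genes were called. Acvr2a shares 446 of its 5686 exon bases with Orc4 on the other strand, which had at most 363 reads in a library.

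Acvr2b (chr9:119402118-119434995, + strand) had 2.62, 3.18 and 1.97 CPM in miR-27a-KD, 8.31, 3.80 and 12.7 CPM in KPC Scr, and 1.27 and 3.85 CPM in sham libraries. KPC Scr libraries 1 and 3 were the highest, and KPC Scr library 2 lay between the 2 sham libraries and above all miR-27a-KD libraries. The log2 fold change was 1.64 ± 0.61 in KPC Scr against sham (edgeR, adjusted p = 0.128) and -1.66 ± 0.52 in miR-27a-KD against KPC Scr (adjusted p = 0.0875). Without KPC Scr library 2 both were called, at 1.97 (adjusted p = 0.00270) and -2.01 (adjusted p = 0.000814). In that setting 51.0% and 54.0% of all genes were called. With KPC Scr library 2 alone in its group the changes of Acvr2b were 0.54 and -0.58. Per kilobase, Acvr2a over Acvr2b was 20.9, 13.5 and 23.5 in miR-27a-KD, 9.52, 15.5 and 4.15 in KPC Scr, and 26.1 and 12.8 in sham libraries. Acvr2a over Acvr1b was 3.19, 2.01 and 2.40 in miR-27a-KD, 1.39, 1.80 and 1.26 in KPC Scr, and 3.76 and 3.09 in sham libraries. The second ratio was lower in every KPC Scr library than in any other library, and the first overlapped.

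**Figure D3:**
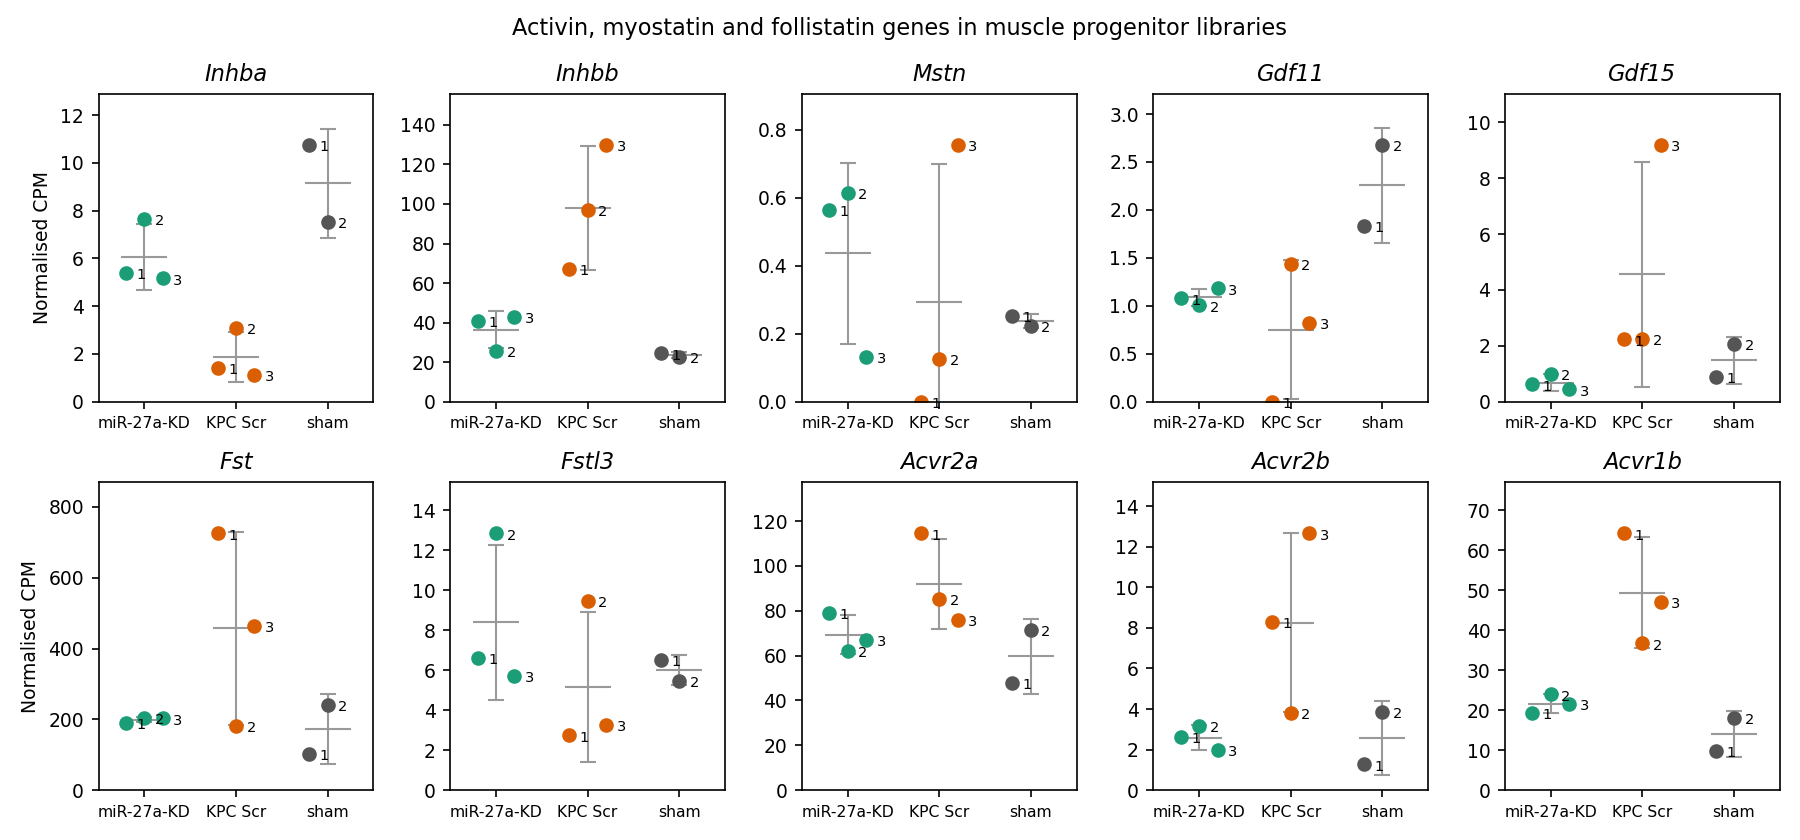
Normalised CPM of the 10 genes in each library (points, numbered within groups) with the group mean and SD (bars, cut at 0 where they would pass below it). Inhbb and Acvr1b are higher and Inhba lower in all 3 KPC Scr libraries than in any other library, whereas for Fst the KPC Scr points spread from 182 to 725.

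Between KPC Scr and sham, all libraries of one group lay above all of the other for 4 of the 10 genes in the higher direction and 2 in the lower, against 20.2% and 20.8% of all genes tested. Between miR-27a-KD and KPC Scr, 1 was apart as higher and 4 as lower, against 17.5% and 16.7%. Between miR-27a-KD and sham, Inhbb and Acvr1b were apart as higher and Gdf11 as lower, against 13.8% and 13.5%. Separation alone is common in these data, and the counts are given as a description.

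Levels of different genes were compared as mean normalised CPM per kilobase of exon. In miR-27a-KD the order was Fst (43.4 ± 1.70 SD), Acvr2a (12.2 ± 1.55), Inhbb (8.57 ± 2.20), Acvr1b (4.90 ± 0.526), Fstl3 (3.43 ± 1.58), Inhba (0.949 ± 0.215), Acvr2b (0.659 ± 0.155), Gdf15 (0.370 ± 0.157), Gdf11 (0.268 ± 0.0218) and Mstn (0.161 ± 0.0982). In KPC Scr it was Fst (99.5 ± 59.2), Inhbb (23.0 ± 7.39), Acvr2a (16.2 ± 3.53), Acvr1b (11.2 ± 3.14), Gdf15 (2.46 ± 2.17), Fstl3 (2.11 ± 1.53), Acvr2b (2.10 ± 1.13), Inhba (0.294 ± 0.165), Gdf11 (0.185 ± 0.177) and Mstn (0.109 ± 0.150). In sham it was Fst (37.5 ± 21.5), Acvr2a (10.5 ± 2.96), Inhbb (5.53 ± 0.322), Acvr1b (3.16 ± 1.31), Fstl3 (2.45 ± 0.303), Inhba (1.43 ± 0.356), Gdf15 (0.796 ± 0.450), Acvr2b (0.651 ± 0.465), Gdf11 (0.555 ± 0.147) and Mstn (0.0880 ± 0.00780). The libraries of Acvr1b and Fstl3 overlapped in miR-27a-KD and sham, as did those of Gdf15, Acvr2b and Gdf11 in sham, and of Inhbb and Acvr2a, of Acvr2a and Acvr1b, of Gdf15, Fstl3 and Acvr2b, and of Inhba, Gdf11 and Mstn in KPC Scr. In miR-27a-KD, the neighbours Inhba and Acvr2b, Acvr2b and Gdf15, and Gdf15 and Gdf11 overlapped too. Follistatin RNA led in all 3 groups, and Inhbb stood above Acvr2a in the order of KPC Scr only by means whose libraries overlapped.

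**Figure D4:**
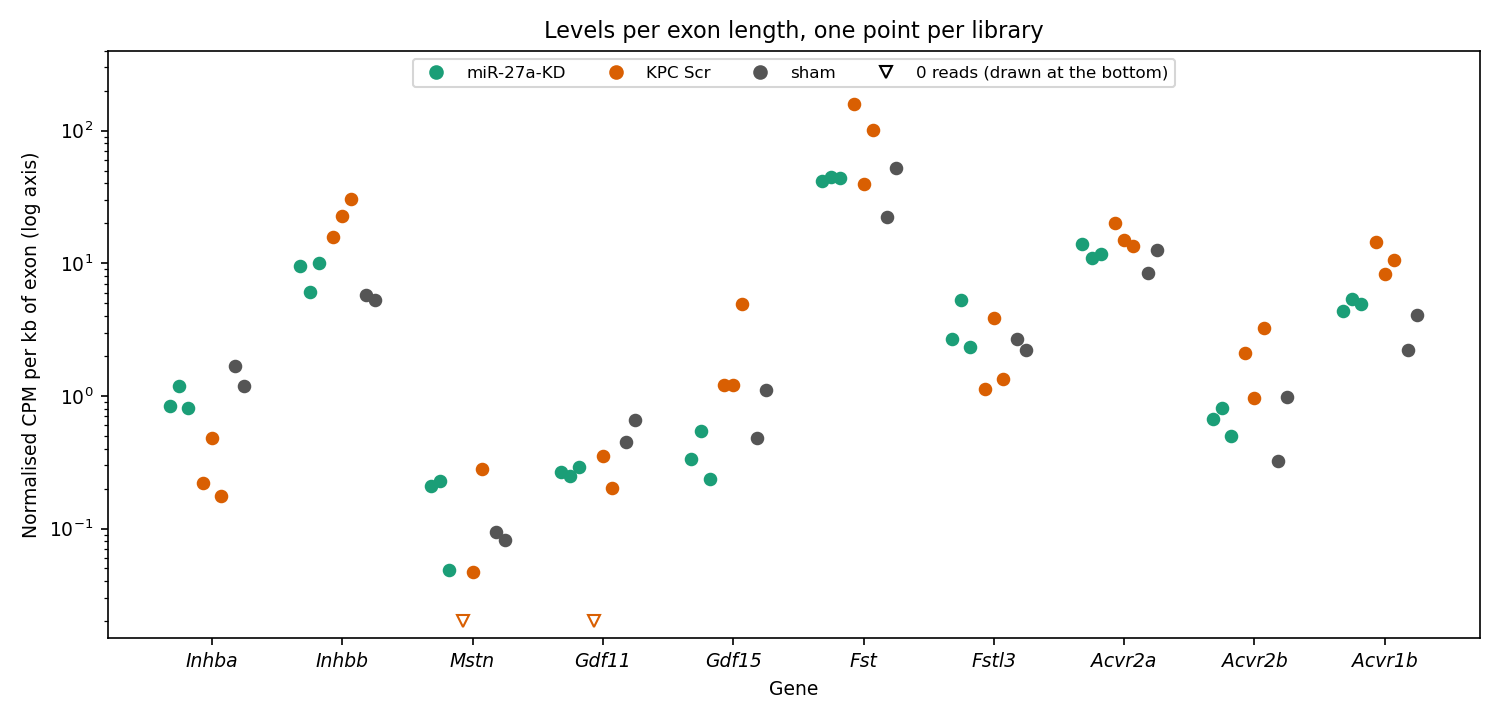
Normalised CPM per kb of exon (log axis) of the 10 genes, 1 point for each library, with miR-27a-KD left, KPC Scr in the middle and sham right within each gene. Fst is the highest gene in every library and Mstn stands at or near the bottom, with 0 reads of Mstn and Gdf11 in KPC Scr library 1.

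For the 3 genes called between KPC Scr and sham, the RefSeq promoters (GRCm38.p6, 250 bases before the start and 50 after) were read for 4 motifs on both strands: the SMAD-binding motif CAGAC, the GC box with the letters GGGCGG, the TATA box written TATAAA, and TGACGTCA of the cAMP response element. They are printed because these genes changed in the same comparison, and the capitals mark the matches. 
Inhba promoter, chr13:16011601-16011900, + strand: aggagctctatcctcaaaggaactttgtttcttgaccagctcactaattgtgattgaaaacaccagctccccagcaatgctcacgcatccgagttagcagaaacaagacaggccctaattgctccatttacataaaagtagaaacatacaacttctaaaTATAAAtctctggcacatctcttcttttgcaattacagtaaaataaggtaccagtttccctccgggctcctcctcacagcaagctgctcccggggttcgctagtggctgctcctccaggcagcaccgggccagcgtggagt
Inhbb promoter, chr1:119422199-119422498, - strand: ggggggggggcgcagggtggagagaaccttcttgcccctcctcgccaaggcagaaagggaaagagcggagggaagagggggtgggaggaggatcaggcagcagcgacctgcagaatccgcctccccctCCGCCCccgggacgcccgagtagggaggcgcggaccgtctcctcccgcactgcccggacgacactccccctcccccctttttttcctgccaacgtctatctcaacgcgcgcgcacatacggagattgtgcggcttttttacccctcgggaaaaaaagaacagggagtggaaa
Acvr1b promoter, chr15:101173822-101174121, + strand: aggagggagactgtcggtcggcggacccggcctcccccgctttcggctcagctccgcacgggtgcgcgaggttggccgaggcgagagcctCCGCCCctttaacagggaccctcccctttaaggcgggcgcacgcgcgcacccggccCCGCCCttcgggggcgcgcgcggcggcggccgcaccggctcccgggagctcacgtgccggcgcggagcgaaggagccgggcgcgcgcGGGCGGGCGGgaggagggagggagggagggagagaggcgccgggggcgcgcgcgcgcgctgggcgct
The Inhba window, 47.7% G and C, held 1 TATAAA, which 13.6% of 32851 promoters hold. The Inhbb window (64.3% G and C) held 1 GC box and the Acvr1b window (79.7%) held 4, of which a pair overlap, and 35.7% of promoters hold at least 1. None of the 3 windows held CAGAC, which 49.6% of promoters hold, or TGACGTCA, which 1.79% hold. Matches are letters in these windows and not shown to be sites. Fst had no entry in the promoter table.

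The genes whose log2 CPM followed these 3 most closely over the 8 libraries were taken from 9998 genes with a mean of at least 5 CPM. For Inhba they were Copa (r = 0.993), Kcnk5 (0.993) and Atp5j2 (0.992), for Inhbb Snx10 (0.976), Oxsr1 (0.974) and Ctsa (0.960), and for Acvr1b Ier3 (0.988), C1qtnf7 (0.984) and Zfp36 (0.984). All of these correlations rest on the same 8 libraries in 3 groups and describe a shared order of libraries.

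Around the 10 genes, 55 other symbols of the pathway were listed by role, 54 were rows of the table (Ccn2 is another name of Ctgf, which was also listed), and 44 were tested. Between KPC Scr and sham 1 was called higher and 0 lower (edgeR), against 1.58% of all genes in either direction. The unadjusted p was under 0.05 for 22, of which 14 had a positive and 8 a negative change, against 16.7% and 12.5% of all genes. DESeq2 called 15, against 15.2% of all genes, and limma-voom 2. The median log2 fold change of the 44 was -0.01, beside 0.00 over all genes. Between miR-27a-KD and KPC Scr 0 were called, with 9 positive and 14 negative changes whose unadjusted p was under 0.05 (13.9% and 18.6% of all genes), 15 called by DESeq2 (17.0% of all genes) and 0 by limma-voom. Between miR-27a-KD and sham 0 were called and 0 had an unadjusted p under 0.05, and DESeq2 and limma-voom also called 0.

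The gene called was Ctgf, which encodes a matrix protein of fibrosis and is a textbook target of SMAD signalling. It had 521, 306 and 401 CPM in miR-27a-KD, 1911, 971 and 1879 CPM in KPC Scr, and 307 and 193 CPM in sham libraries. All KPC Scr libraries stood above the others, which overlapped among themselves. Ctgf rose by 2.67 ± 0.40 on the log2 scale in KPC Scr against sham (edgeR, adjusted p = 0.0236), and its change was -1.95 ± 0.33 in miR-27a-KD against KPC Scr (adjusted p = 0.0610). The call was lost when any library other than KPC Scr library 2 was left out (adjusted p from 0.0517 to 0.220). It was kept without KPC Scr library 2 (2.93, adjusted p = 1.15e-05), where 51.0% of all genes were called. With that library alone in its group the change was 1.96. Of the 9 targets tested, Ctgf included, 2 had an unadjusted p under 0.05 and a positive change between KPC Scr and sham, and 1 a negative one, near the 16.7% and 12.5% of all genes. DESeq2 called 2 of the 9, against 15.2% of all genes, and limma-voom 2. At any p, 4 of the 9 had a positive and 5 a negative log2 fold change, with a median of -0.04.

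Of the 7 other receptors and co-receptors tested, 0 were called between KPC Scr and sham by edgeR or limma-voom, 5 had an unadjusted p under 0.05 (29.2% of all genes) and DESeq2 called 4 (15.2% of all genes). Tgfbr3, the co-receptor betaglycan that strengthens inhibin's hold on the type II receptors, had 641, 729 and 678 CPM in miR-27a-KD, 2093, 914 and 2167 CPM in KPC Scr, and 556 and 812 CPM in sham libraries. Its log2 fold change was 1.33 ± 0.37 in KPC Scr against sham (edgeR, adjusted p = 0.0820). Ret, the signalling partner of GFRAL and of the GDNF receptors, had 176, 199 and 188 CPM in miR-27a-KD, 16.1, 99.8 and 16.9 CPM in KPC Scr, and 436 and 178 CPM in sham libraries, and its change was -2.79 ± 0.73 (adjusted p = 0.0751). Fkbp1a, whose product keeps type I receptors quiet, had -0.89 ± 0.27 (adjusted p = 0.0965), also without a call. In all 3 genes KPC Scr library 2 lay on the sham side of its group.

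Several processing and binding genes also differed among the KPC Scr libraries. Of the 8 processing genes tested, 0 were called between KPC Scr and sham by edgeR or limma-voom, 3 had an unadjusted p under 0.05 and DESeq2 called 2, both near the shares of all genes (29.2% and 15.2%). Bmp1, the protease that frees myostatin from its propeptide, had 842, 947 and 874 CPM in miR-27a-KD, 430, 732 and 445 CPM in KPC Scr, and 1201 and 965 CPM in sham libraries (log2 -1.02 ± 0.26 in KPC Scr against sham, edgeR, adjusted p = 0.0720). For Pcsk6 and Furin, proprotein convertases, the log2 fold changes in the same comparison were -1.62 ± 0.48 (adjusted p = 0.0932) and 0.51 ± 0.22 (adjusted p = 0.161). Of the 5 other binders tested, 0 were called by edgeR or limma-voom, 4 had an unadjusted p under 0.05 and DESeq2 called 4, against 29.2% and 15.2% of all genes. Wfikkn1, an inhibitor of myostatin and GDF11, had 1.80, 2.68 and 2.67 CPM in miR-27a-KD, 30.4, 3.38 and 12.1 CPM in KPC Scr, and 2.02 and 2.29 CPM in sham libraries (log2 2.83 ± 0.85, adjusted p = 0.0954). Fstl1, a follistatin-like glycoprotein, had a log2 fold change of -1.53 ± 0.42 (adjusted p = 0.0807) and Igsf1, a membrane protein named as an inhibin binder, one of -2.03 ± 0.48 (adjusted p = 0.0641).

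Inside the cell, 0 of 4 SMAD transducers and 0 of 10 feedback genes and corepressors were called between KPC Scr and sham by edgeR or limma-voom. Unadjusted, 1 and 5 of them had a p under 0.05, against 29.2% of all genes, and DESeq2 called 0 and 2, against 15.2%. Smad7, the inhibitory SMAD, had 20.4, 28.7 and 21.4 CPM in miR-27a-KD, 71.0, 37.3 and 67.4 CPM in KPC Scr, and 24.5 and 30.4 CPM in sham libraries. Its log2 fold change was 1.09 ± 0.30 in KPC Scr against sham (edgeR, adjusted p = 0.0821) and -1.32 ± 0.27 in miR-27a-KD against KPC Scr (adjusted p = 0.0657). Tgif1, a corepressor of SMAD complexes, had log2 fold changes of 1.72 ± 0.41 (adjusted p = 0.0645) and -1.65 ± 0.35 (adjusted p = 0.0684) in these comparisons, and Ppm1a, a phosphatase of SMADs, had 0.79 ± 0.30 (adjusted p = 0.134) and -0.79 ± 0.27 (adjusted p = 0.0966). The transducers Smad3, Smad4 and Zfyve9 had log2 fold changes of -0.20 ± 0.20, 0.62 ± 0.27 and -0.17 ± 0.18 in KPC Scr against sham (adjusted p from 0.168 to 0.539).

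**Figure D5:**
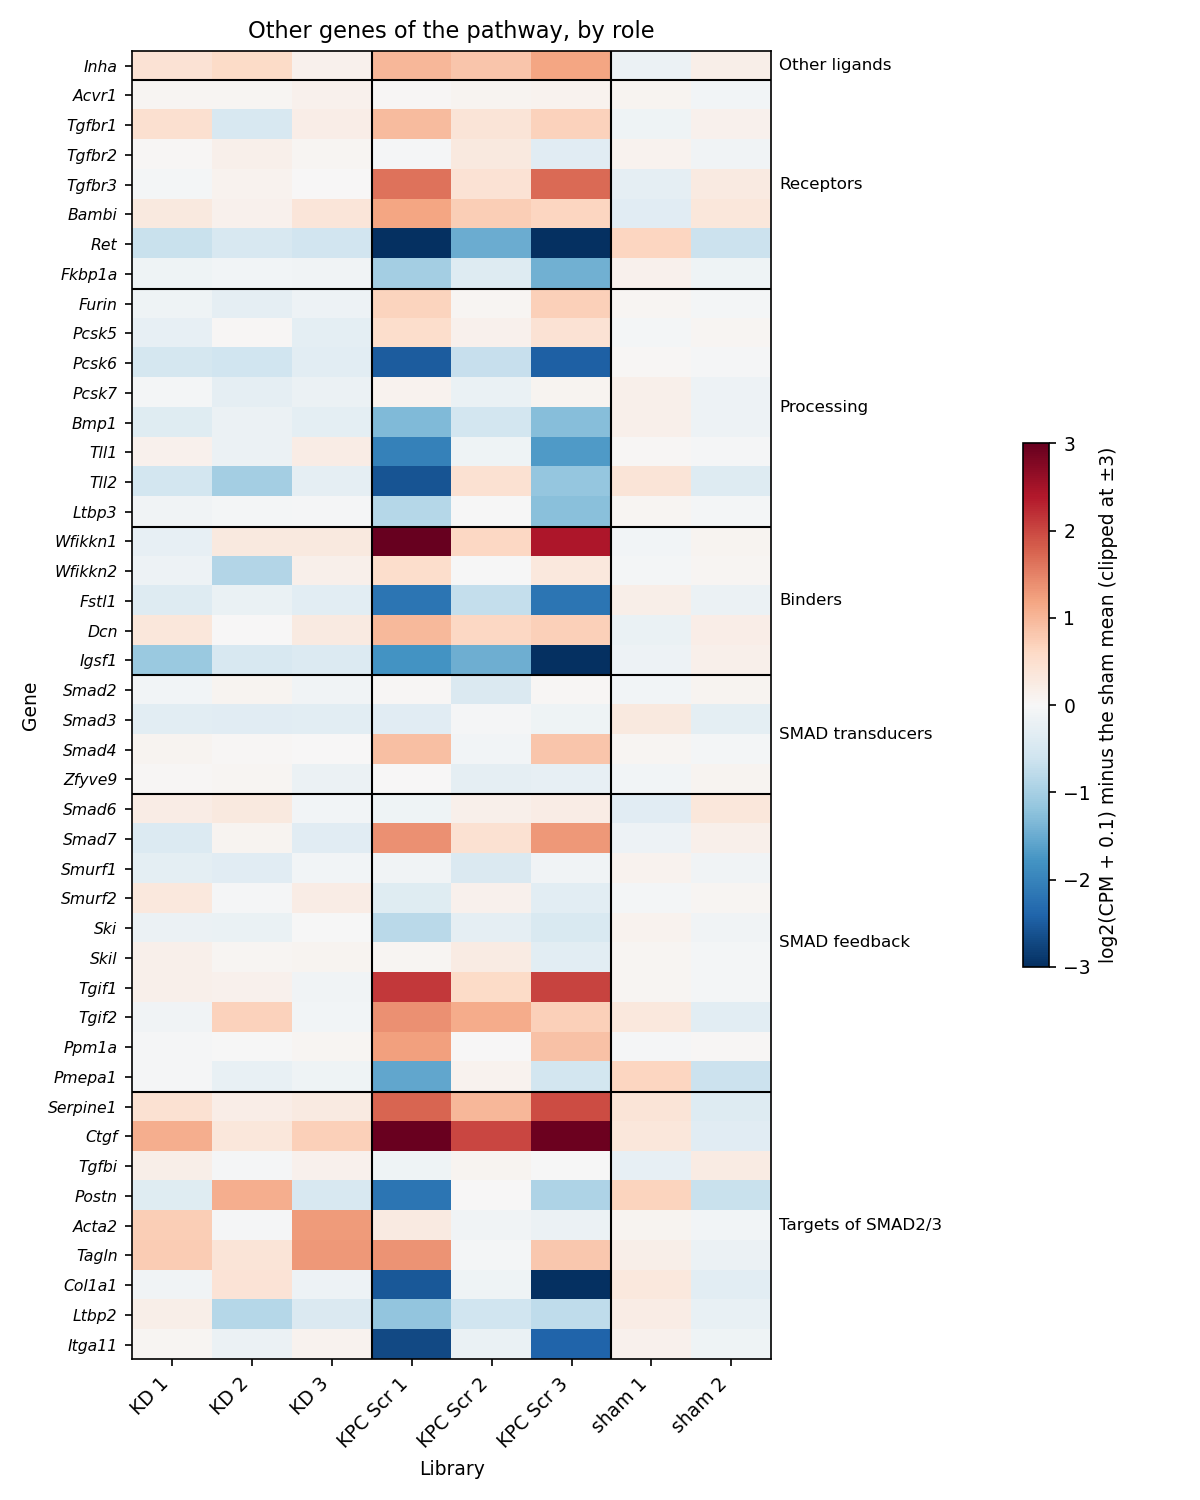
Log2(CPM + 0.1) of the 44 tested pathway genes in each library minus the mean of the sham libraries, clipped at 3 in either direction, with genes grouped by role. Ctgf is red in all 3 KPC Scr libraries, while Wfikkn1, at 30.4 and 12.1 CPM in KPC Scr libraries 1 and 3 and 3.38 CPM in KPC Scr library 2, is strongly red only in libraries 1 and 3.

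Of the listed genes, 10 were below the filter, and 8 of them had 0 reads in every library. Inhbc had 13 reads in KPC Scr library 1 and 0 elsewhere, and Acvr1c, the type I receptor ALK7, had 3 reads in sham library 1 and 0 elsewhere. A count of 0 allows up to 3 reads in a library.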

How the data were processed

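RNA from sorted fibroadipogenic progenitors of 8 mice was sequenced as stranded mRNA libraries with paired reads of 59 bases from RNA of integrity number 7 or more, per the labels' protocols. The authors deposited 1 table of raw read counts by gene symbol, with a column for each library, and no normalised value was used. The submitters' processing notes name mm10 as build, with STAR, Bowtie, bcl2fastq 2.20, R 4.2.1 and DESeq2 1.36.0, and give no role for any. How reads were assigned to genes (tool, annotation, strand) is not given in the sources used here. Total counts were 15647436 to 28340450 per library, and no 2 libraries looked like copies. Counting limits cover reads and not molecules, since there were no molecular identifiers.

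Groups came from the labels. Genes were kept by filterByExpr (minimum count 10, total 15) and scaled by TMM. The edgeR 4.0.16 quasi-likelihood fit (robust) in R 4.3.3 used 3 group means over all 8 libraries, so each comparison also draws its spread from the third group. P-values, all two-sided, carry a Benjamini-Hochberg adjustment over 13646 genes, and a gene under 0.05 is named as called. A standard error is the absolute log2 fold change over the square root of F. Groups were called apart when their CPM did not overlap. Exon lengths and coordinates came from GENCODE M21 (GRCm38), which held 95.6% of the symbols. Sequences came from its transcripts and from RefSeq tables. The fit was tested on simulated data.

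The 10 genes, the pathway lists and the marker lists were chosen with earlier results of these data known, so no list supports its own direction. All 10 genes are given values. In each pathway role, genes called in any comparison are named, or else at most the 3 with the smallest p, and each called gene gets the 3 genes most correlated with it. Inhbc and Acvr1c fall outside this rule and were chosen after their values were seen, as was Gfral, named for its receptor role. Alternatives were RLE scaling, no count filter, a minimum count of 30, DESeq2 1.42.0, limma-voom (limma 3.58.1), edgeR's legacy method, the compared groups alone, a replicate block, and leaving out each library. Unscaled library sizes were tried for mean CPM alone. KPC Scr library 2 alone in its group was added after seeing the data, with the lone library assumed to vary like the others.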

Additional observations from a re-analysis of the deposited data

How the results depend on the processing

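Depth limits Mstn and Gdf11, with at most 12 and 48 reads in a library. Counts were also low for Gdf15, with 12, 18 and 10 reads in miR-27a-KD, and for Inhba, with 36, 73 and 18 in KPC Scr. The number of calls differed widely among the settings. Between KPC Scr and sham edgeR called 215 genes and 3 of the 10 axis genes. There were 2074 and 5 with DESeq2, 133 genes with the legacy method, 4 and 0 with only the groups compared, 16 and 0 with the replicate block, and 493 genes with KPC Scr library 2 alone in its group. Leaving out 1 library gave 0 to 6908 genes and 0 to 7 axis genes. Between miR-27a-KD and KPC Scr the 7 genes and 0 axis genes became 11 genes with no count filter, 1 with a minimum count of 30, 2320 and 6 with DESeq2, 1 with the legacy method, 0 with only the groups compared, 0 with the block, 100 and 1 with KPC Scr library 2 alone, and 0 to 7313 and 0 to 7 with 1 library left out. Between miR-27a-KD and sham the 1 gene became 2 with no count filter, 25 with DESeq2, 101 with only the groups compared, 0 with the block, 103 with KPC Scr library 2 alone and 0 to 32 with 1 library left out, and the axis genes stayed at 0 in all of these. Both extremes, 6908 and 7313, came without KPC Scr library 2. The cause of these differences in the number of calls was not tested.

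Inhba, Inhbb and Acvr1b kept their direction between KPC Scr and sham under all 17 alternatives. Their calls held in 6, 9 and 8 of these. Inhba missed the threshold with the legacy method (-2.27, adjusted p = 0.0585), only the groups compared (-2.25, 0.221), the replicate block (-2.16, 0.130) and KPC Scr library 2 alone (-1.55, 0.0590), over a range of adjusted p from 0.000187 to 0.397. Inhbb and Acvr1b missed it with only the groups compared (2.06, 0.165 and 1.82, 0.204) and with the replicate block (1.86, 0.0862 and 1.85, 0.127), over ranges from 1.71e-07 to 0.290 and from 1.63e-05 to 0.344. Without 1 library their log2 fold changes ran from -2.79 to -1.97 for Inhba, 1.81 to 2.27 for Inhbb and 1.45 to 2.31 for Acvr1b. Between miR-27a-KD and KPC Scr, deviations of same-numbered libraries from their group means correlated at 0.0680, -0.00120 and 0.172. Libraries with unlike numbers gave -0.149 to 0.0683 there. With 2 sham libraries the sham deviations are exact opposites, so correlations with them cannot show pairing. For same-numbered libraries these were -0.0216 and -0.0643 with KPC Scr, and 0.0137 and 0.00603 with miR-27a-KD. These values do not settle whether the replicate numbers pair the libraries.

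Of the alternatives for single genes, 1220 kept direction and side of the threshold, 74 gained a call, 36 lost one and 43 changed sign. In KPC Scr against sham the sign changed for Mstn (0.0024 with RLE, 0.28 with DESeq2, 0.21 with the legacy method, -1.86 to 0.69 without 1 library), for Fstl3 (0.67 with KPC Scr library 2 alone, -1.003 to 0.13 without 1 library), for Smad4 (-0.069 with KPC Scr library 2 alone) and for Smad3 (-0.48 to 0.13 without 1 library). In miR-27a-KD against KPC Scr it changed with KPC Scr library 2 alone for Gdf11 (-0.39), Fst (0.13), Fstl3 (-0.20) and Smad4 (0.11), and for Gdf11 without 1 library (-0.10 to 1.76). In miR-27a-KD against sham, where most values lie near 0, it changed for Ppm1a (-0.0028 with RLE and with DESeq2, -0.014 with no filter, -0.047 with the block), Tgfbr3 (0.00032 with a minimum count of 30, 0.023 with limma-voom), Acvr2b (0.0075 with DESeq2, 0.13 with limma-voom, 0.0094 with the legacy method) and, with the block, Fkbp1a (0.0029), Smad4 (-0.0078) and Zfyve9 (0.030). Without 1 library these ran from -0.031 to 0.031 for Ppm1a, -0.25 to 0.29 for Tgfbr3, -0.59 to 1.01 for Acvr2b, -0.25 to 0.025 for Fkbp1a, -0.0055 to 0.093 for Smad4 and -0.096 to 0.048 for Zfyve9, and also -0.28 to 0.96 for Fst, -0.048 to 0.54 for Acvr2a and -1.22 to 0.074 for Ret. Mstn was not tested under a minimum count of 30, nor in KPC Scr against sham with only the compared groups fitted. The cause of these changes was not tested.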
